A study of Homo sapiens with 6 samples.

Results

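The genes described here are the receptors, receptor partners and transcription factors at the core of Hedgehog signalling, with their levels in breast cancer cells before and after knockdown of CCN3. They are 9 of the 46427 genes counted, namely PTCH1, HHIP, BOC, GAS1, SMO, SUFU, GLI1, GLI2 and GLI3. The set was chosen by pathway role after the PTCH1 counts of this same contrast were known, so the differences of these genes between the groups are given as a description and no p is attached to them. The cells were Hs578T, a human line from a triple-negative breast carcinoma, grown in DMEM with serum, and every culture had been transduced with a pSUPER retrovirus and selected with puromycin. The shCTRL group carried a control shRNA and the shCCN3 group carried a CCN3 shRNA, the only one sequenced, against the secreted matricellular protein CCN3. Poly(A) RNA of 3 replicates per group was sequenced, and the labels number the replicates 1 to 3 in both groups. The series' design text describes them as independent biological replicates. The study's methods call the puromycin-selected cells clones without giving the number of clones. A difference between clones and an effect of the shRNA cannot be told apart here.

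Hedgehog signalling is a relay of inhibitions. Without ligand, the membrane receptor PTCH1 keeps the transducer SMO inactive, SUFU holds the GLI proteins back and GLI3, with part of GLI2, is cut into a repressor. A Hedgehog ligand bound to PTCH1 and a co-receptor frees SMO, full-length GLI2 then activates transcription, and GLI1, PTCH1 and HHIP are the textbook target genes that rise with it, PTCH1 and HHIP as brakes. In breast, the pathway is known for exchange between epithelium and stroma and for its part in mammary development.

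The libraries held 56159110 to 68393177 counts, at which 3 counts equal 0.0435 to 0.0540 CPM, which are a gene's counts on a common scale of library size, with the totals corrected by the trimmed mean of M values (TMM). Counting error alone is covered by this limit. The libraries of a group differed beyond counting noise, with a chi-square per degree of freedom of 7.04 to 45.5. The pairs with shCCN3 replicate 2 were highest, at 37.3 and 45.5, where shCCN3 replicates 1 and 3 gave 9.86. A gene is called when its p from edgeR's quasi-likelihood test is under 0.05 after the adjustment of Benjamini and Hochberg, made over all 17419 genes left by a filter on low counts. CCN3 itself fell, from 101 ± 2.43 CPM to 47.0 ± 0.469 CPM (SD, n = 3), a log2 fold change of -1.10 (SE 0.0554, adjusted p = 1.34e-06, edgeR's quasi-likelihood test). All 7 mesenchymal markers were above 10 CPM in shCTRL cells, with vimentin (VIM) at 7778 CPM, while EPCAM, CDH1 and KRT19 of the epithelial markers, and the receptor ESR1, were at or near 0 in both groups. The other epithelial markers were present, with KRT18 higher in shCCN3 cells (163 against 232 CPM) and KRT8 (20.0 against 13.9 CPM) and CLDN4 (0.754 against 0.147 CPM) lower. PGR was at 2.86 CPM and ERBB2 at 77.9 CPM in shCTRL cells. Of 5 markers of immune and endothelial cells, CD3E was at 0 in every library, and PTPRC and VWF were at most 0.203 CPM. PECAM1 was at 3.57 CPM in shCTRL and 3.43 CPM in shCCN3 cells. CD68, at 102 against 58.5 CPM, alone was called, lower in shCCN3 cells. These 5 summed to 98.5 to 111 CPM in shCTRL and 61.2 to 63.0 CPM in shCCN3 cells, nearly all of it CD68. The 6 epithelial markers summed to 174 to 193 CPM and 226 to 278 CPM, nearly all of it KRT18, and the 7 mesenchymal markers to 13217 to 13348 CPM and 12584 to 12781 CPM, with 2 called higher and 1 lower. Their part in the Hedgehog genes' values was not tested.

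All 9 genes passed the filter on low counts. Of them, 5 were called, or 55.6%, where 33.4% of all genes tested were called. PTCH1, GAS1 and GLI3 were lower in shCCN3 cells, in a direction that took 17.3% of all genes tested, and HHIP and BOC were higher, in a direction that took 16.2%. For 7 of the 9 genes the 3 libraries of a group lay entirely to a side of the other group, as they did for 46.3% of all genes tested. SMO and GLI2 were those with overlapping groups. PTCH1 and GAS1 differed by at least 2-fold, as 9.69% of all genes tested did, and the median log2 fold change was -0.08 over the 9 genes and 0.01 over all genes tested. Since the genes were proposed with this contrast known, nothing is read from these counts. In RNA from whole cultures, fewer cells with a transcript and less transcript per cell cannot be told apart.

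**Figure D1:**
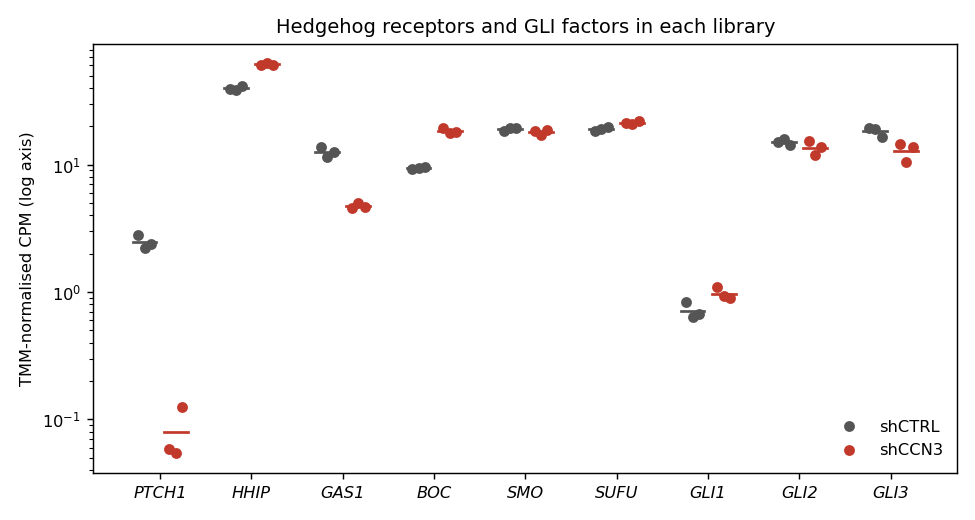
Level of each Hedgehog receptor, partner and GLI factor in the 6 libraries, in TMM-normalised CPM on a log axis. Points are libraries (grey shCTRL, red shCCN3) and lines are group means, and the widest gap is that of PTCH1, at 2.23 CPM or above in shCTRL and at 0.125 CPM or below in shCCN3 cells.

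PTCH1, the ligand-binding receptor and inhibitor of SMO, showed the largest difference of the 9 genes. It lies at chr9:95442980-95516971 on the minus strand of GRCh38.p14. The shCTRL libraries 1 to 3 held 191, 140 and 160 reads of PTCH1, and the shCCN3 libraries held 4, 3 and 8. No shCCN3 library came near the shCTRL range, and the transcript was almost lost from libraries of about equal depth. In TMM-normalised CPM, PTCH1 was at 2.78, 2.23 and 2.38 in shCTRL and at 0.0580, 0.0540 and 0.125 in shCCN3 cells, or 2.46 ± 0.284 against 0.0790 ± 0.0399 CPM (SD, n = 3). The log2 fold change was -4.92 (SE 0.301), and 0.25% of all genes tested had a lower value. On the summed counts of 491 and 15 reads the level was 31.1 times higher in shCTRL than in shCCN3 cells. The 95% counting interval of 18.6 to 55.9 leaves out the spread between libraries of a group. The shCCN3 values thus rest on a few reads, and shCCN3 replicate 3 holds most of them, so that without that library the log2 fold change was -5.41.

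The genes around PTCH1 did not show a difference of this size. Over the 709 tested genes of chromosome 9 the median log2 fold change was -0.07. The 10 tested genes nearest to PTCH1, 5 on each side, ranged from -0.67 to 0.39 with a median of -0.23, so that no neighbour had a log2 fold change like that of PTCH1.

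PTCH1 is the textbook direct target of the GLI factors, and one of its start sites carries the letters of the GLI consensus. RefSeq start windows on GRCh38.p14, each with 250 bases before and 50 after a start site, were searched on both strands for GACCACCCA, whose reverse complement is TGGGTGGTC. Of 35116 windows of 27305 genes, 83 windows (0.236%) of 81 genes (0.297%) held it. Of the 9 Hedgehog genes, 7 had a window in the table, and 1 of the 5 PTCH1 windows held a match. The 250 bases before that start site are printed because they hold that match, at position -172 from the start and on the strand opposite to the gene. They span chr9:95509267-95509516 and are written 5′ to 3′ on the minus strand, with the match in capitals.

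PTCH1 upstream: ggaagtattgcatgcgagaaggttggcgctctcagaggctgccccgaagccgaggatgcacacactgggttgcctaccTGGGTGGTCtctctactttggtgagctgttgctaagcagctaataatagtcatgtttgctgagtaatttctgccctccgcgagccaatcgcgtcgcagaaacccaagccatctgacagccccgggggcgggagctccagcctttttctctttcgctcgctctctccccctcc

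The match is a description of the letters, not of binding, and these counts per gene do not show which of the start sites was used. No other window of PTCH1, nor those of HHIP, BOC, GAS1, SMO, SUFU and GLI2, held these letters, which says nothing about the factors themselves.

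HHIP encodes a membrane protein that binds Hedgehog ligands and withholds them from PTCH1. In the same libraries in which PTCH1 was nearly absent, HHIP was higher than in the control cells. It lies at chr4:144646156-144745271 on the plus strand. HHIP was at 39.3, 38.2 and 41.3 CPM in shCTRL and at 60.6, 62.2 and 60.9 CPM in shCCN3 cells, a mean of 39.6 ± 1.61 against 61.2 ± 0.871 CPM (SD, n = 3). The groups were far apart for the narrow spread within each. The log2 fold change of HHIP was 0.63 (SE 0.0599), where chromosome 4 had a median of 0.05 and the 10 nearest tested genes one of 0.07. Those 10 genes ranged from -0.28 to 0.77, so the value of HHIP lay within their range. PTCH1 and HHIP, both known as targets and brakes of the pathway, thus lay in opposite directions.

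The HHIP start site lies head to head with that of a long non-coding RNA on the other strand, HHIP-AS1, which was looked up after the HHIP values were seen. Its start lies 137 bases away, at position 144646019 of chromosome 4. HHIP-AS1 was at 6.71, 6.34 and 7.11 CPM in shCTRL and at 11.04, 11.05 and 10.0 CPM in shCCN3 cells, and its log2 fold change was 0.67 (SE 0.0917). The sense and antisense transcripts were higher by a similar factor, since HHIP had 5.82 to 6.03 reads for each HHIP-AS1 read in shCTRL and 5.49 to 6.07 in shCCN3 cells. Whether reads were counted by strand is not given in the sources used here, so reads of one may be included in the other. The 136 bases between both starts, chr4:144646020-144646155 on the plus strand, are printed because they separate the pair that was higher together. They are in lower case throughout, since no match to the GLI letters lies in them.

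HHIP to HHIP-AS1: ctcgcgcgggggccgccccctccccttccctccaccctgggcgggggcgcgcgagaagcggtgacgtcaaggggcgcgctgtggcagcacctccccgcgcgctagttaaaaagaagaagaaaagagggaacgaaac

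BOC and GAS1 are co-receptors that bind ligand together with PTCH1, and they lay in opposite directions. BOC, a transmembrane protein of the immunoglobulin superfamily, lies at chr3:113210926-113287459. It was at 9.29, 9.49 and 9.64 CPM in shCTRL and at 19.2, 17.8 and 18.0 CPM in shCCN3 cells, or 9.47 ± 0.178 against 18.4 ± 0.771 CPM (SD, n = 3). Every shCCN3 library was well above every shCTRL library. The log2 fold change of BOC was 0.96 (SE 0.0757), and the 10 nearest tested genes had a median of 0.25. Those 10 genes ranged from -0.12 to 1.54, so the value of BOC lay within their range. The BOC locus touches CFAP44 at its end, and CFAP44 held 785, 711 and 728 reads in shCTRL and 769, 556 and 836 in shCCN3 libraries, without the separation seen for BOC.

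GAS1, a lipid-anchored protein first known from growth-arrested cells, lies at chr9:86944362-86947506. Its levels were 13.8, 11.6 and 12.5 CPM in shCTRL and 4.60, 5.04 and 4.61 CPM in shCCN3 cells, or 12.6 ± 1.10 against 4.75 ± 0.250 CPM (SD, n = 3). The shCCN3 libraries were close to each other and all below the shCTRL range. The log2 fold change of GAS1 was -1.41 (SE 0.1003). Its 10 nearest tested genes ranged from -1.42 to 1.58 with a median of -0.23, so the value of GAS1 lay within their range. Of the tested genes of chromosome 9, 1.7% had a lower value. The neighbours of PTCH1, on the same chromosome, had a like median but a narrower range, from -0.67 to 0.39.

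SMO, the 7-pass membrane protein that carries the signal inward, did not pass the test. SMO was at 18.3, 19.4 and 19.5 CPM in shCTRL and at 18.5, 16.99 and 18.6 CPM in shCCN3 cells, or 19.0 ± 0.628 against 18.0 ± 0.896 CPM (SD, n = 3). The groups overlapped, and the log2 fold change was -0.08 (SE 0.0737). SMO lies at chr7:129188633-129213545, and chromosome 7 was the exception among the chromosomes that carry the 9 genes. The median log2 fold change of its 821 tested genes was -0.43, with 697 of them (84.9%) below 0, while the medians of the others lay between -0.07 and 0.05. Against that median SMO was higher by 0.35 on the log2 scale, and 80.9% of the tested genes of chromosome 7 had a lower value. What lies behind the shift of chromosome 7 was not tested.

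SUFU, the cytoplasmic inhibitor that binds GLI proteins, lies at chr10:102502819-102633535. SUFU was at 18.3, 19.1 and 19.8 CPM in shCTRL and at 21.1, 20.9 and 21.8 CPM in shCCN3 cells, or 19.1 ± 0.770 against 21.3 ± 0.468 CPM (SD, n = 3). The groups did not overlap, but the gap was narrow and the gene was not called, with a log2 fold change of 0.16 (SE 0.0695).

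The GLI genes encode zinc finger transcription factors. GLI1, the activator whose transcription is the usual readout of the pathway, lies at chr12:57459785-57472268 and was present at a low level. It had 57, 40 and 45 reads in shCTRL and 75, 52 and 57 reads in shCCN3 libraries, which in TMM-normalised CPM were 0.830, 0.637 and 0.671 against 1.09, 0.936 and 0.891. The shCCN3 libraries all lay above the shCTRL libraries by a small margin. GLI1 was at 0.712 ± 0.103 CPM in shCTRL and 0.972 ± 0.103 CPM in shCCN3 cells (SD, n = 3), with a log2 fold change of 0.45 (SE 0.219), and was not called.

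GLI2, the main activator downstream of SMO, lies at chr2:120735868-120992653. GLI2 was at 14.9, 15.7 and 14.3 CPM in shCTRL and at 15.3, 11.8 and 13.7 CPM in shCCN3 cells, or 15.0 ± 0.701 against 13.6 ± 1.76 CPM (SD, n = 3). The groups overlapped, with shCCN3 replicate 2 the lowest of the 6 libraries. The log2 fold change of GLI2 was -0.14 (SE 0.103), and it was not called.

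GLI3, the main source of the repressor form, lies at chr7:41960949-42264268. It was at 19.3, 19.1 and 16.5 CPM in shCTRL and at 14.6, 10.4 and 13.6 CPM in shCCN3 cells, or 18.3 ± 1.58 against 12.9 ± 2.17 CPM (SD, n = 3). Every shCCN3 library was below every shCTRL library, again with shCCN3 replicate 2 the lowest. The log2 fold change of GLI3 was -0.50 (SE 0.127). This was close to the median of -0.43 of its chromosome, from which it differed by -0.08, and 38.9% of the tested genes of chromosome 7 had a lower value. GLI3 was no longer called without shCTRL replicate 1 (log2 fold change -0.46) or without shCTRL replicate 2 (-0.47), fits that have fewer samples.

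**Figure D2:**
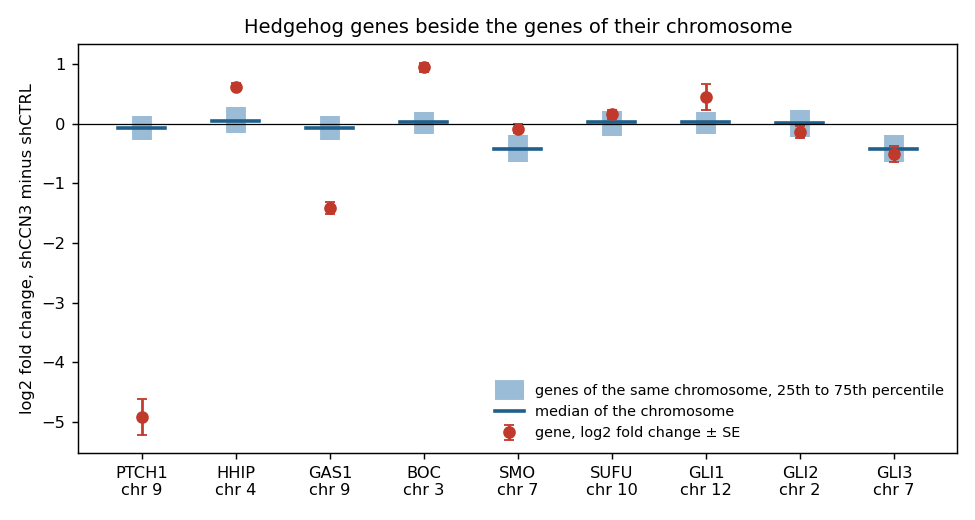
Log2 fold change (shCCN3 minus shCTRL, red points, bars SE) of each Hedgehog gene beside the median (blue line) and the 25th to 75th percentile (light blue) of the tested genes of its chromosome. PTCH1 (-4.92) and GAS1 (-1.41) lie far below the light blue band of chromosome 9, and HHIP (0.63) and BOC (0.96) lie above theirs. GLI3 (-0.50) lies within the lowered band of chromosome 7, above which SMO (-0.08) stands.

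Levels of different genes were compared per length, as CPM per kilobase of exon. In shCTRL cells SMO was the highest, at 5.10 ± 0.168 CPM per kb. It was followed by GAS1 at 4.46 ± 0.390, HHIP at 3.77 ± 0.153 and SUFU at 2.87 ± 0.116 CPM per kb (SD, n = 3). GLI2 and GLI3, at 2.21 ± 0.103 and 2.002 ± 0.173 CPM per kb, overlapped between libraries, so their order is not set. BOC was at 1.56 ± 0.0294 CPM per kb. At the bottom PTCH1 (0.250 ± 0.0289 CPM per kb) and GLI1 (0.197 ± 0.0285 CPM per kb) overlapped as well, both far below the genes that encode the transducer and the co-receptors.

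In shCCN3 cells the order was another. HHIP was first, at 5.83 ± 0.0829 CPM per kb, ahead of SMO at 4.82 ± 0.240 CPM per kb. SUFU (3.21 ± 0.0706 CPM per kb) and BOC (3.03 ± 0.127 CPM per kb) overlapped, and so did GLI2 (2.002 ± 0.258 CPM per kb) and GAS1 (1.68 ± 0.0885 CPM per kb). GAS1 and BOC, the co-receptors, thus exchanged their order. GLI3 followed at 1.41 ± 0.238 CPM per kb and GLI1 at 0.269 ± 0.0286 CPM per kb, and PTCH1 was last at 0.00803 ± 0.00406 CPM per kb (SD, n = 3).

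Among the GLI transcripts, GLI2 and GLI3 made up nearly all of the summed level per length in both groups. The share of GLI1 was 4.47 ± 0.606% in shCTRL and 7.35 ± 0.842% in shCCN3 cells (SD, n = 3). GLI2 held 50.1 ± 1.62% and 54.5 ± 0.884%, and GLI3 held 45.4 ± 1.32% and 38.2 ± 1.73%. The shares sum to the whole in each library, so a lower share of GLI3 raises the others.

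**Figure D3:**
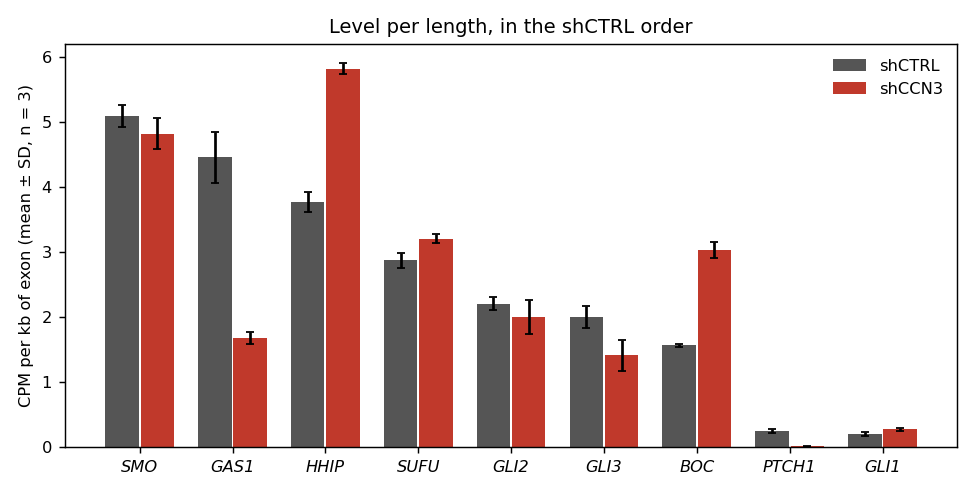
Level of each gene in CPM per kb of exon (bars are means of 3 libraries, error bars SD, axis from 0), in the order of shCTRL cells. SMO is the highest in shCTRL (5.10) and HHIP the highest in shCCN3 cells (5.83), and the PTCH1 bar of shCCN3 cells (0.00803) is barely visible.

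The ligands were close to the limit of counting. SHH, the ligand named Sonic hedgehog, had 0, 7 and 3 reads in shCTRL libraries and none in shCCN3 libraries. IHH had 8, 0 and 2 reads in shCTRL and 6, 4 and 10 in shCCN3 libraries, and DHH had 4, 4 and 4 against 0, 4 and 7. None of these passed the filter on low counts, so a difference between the groups was not tested for them. Of the genes for ligand release and processing, SCUBE2, which encodes a secreted protein that helps to free the lipid-bearing ligand, rose from 0.856 ± 0.0206 CPM to 1.56 ± 0.0194 CPM (SD, n = 3), a log2 fold change of 0.86 (SE 0.172, adjusted p = 0.00419, edgeR's quasi-likelihood test). It was the 1 gene called (20%) of 5 tested in this list of 9, where 33.4% of all genes tested were called. HHAT, the acyltransferase of the ligands, and DISP1, their exporter, had log2 fold changes of -0.16 and -0.16 and were not called.

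Over 6 lists of other pathway genes, 95 genes in all, 82 were tested and 28 (34.1%) were called, 13 higher and 15 lower, beside the 33.4% of all genes tested. Their median log2 fold change was 0.02. The rest of the pathway thus had calls about as often as any gene, in both directions.

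Beside PTCH1, GAS1 and BOC, the list of other receptors held 4 tested genes, of which 2 were called, both lower, where 33.4% of all genes were called and 17.3% called lower. CDON, the relative of BOC and the remaining co-receptor, was at 15.4, 14.3 and 14.9 CPM in shCTRL and at 11.7, 7.22 and 9.63 CPM in shCCN3 cells. All shCCN3 libraries were below the shCTRL libraries, and the log2 fold change was -0.64 (SE 0.151, adjusted p = 0.0100, edgeR's quasi-likelihood test). BOC and CDON, alike in structure, thus differed in direction.

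Of the 14 tested regulators of SMO and protein kinase A, 5 (35.7%) were called, close to the 33.4% of all genes tested, and all 5 were lower, a direction that took 17.3% of all genes. EVC, which anchors active SMO in the cilium, was at 145, 152 and 153 CPM in shCTRL and at 103, 94.0 and 101 CPM in shCCN3 cells, a log2 fold change of -0.59 (SE 0.0601, adjusted p = 7.91e-05, edgeR's quasi-likelihood test). The groups were well apart. EVC2, of the same list, had 0 reads in every library and was not tested. ARRB2, an arrestin that binds SMO, fell by 0.49 on the log2 scale (adjusted p = 0.00175, same edgeR test), and ARRB1, IQCE and PRKACA were the other 3 called. IQCE lies on chromosome 7.

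Genes for processing and degradation of GLI proteins were split, with 4 higher and 2 lower of 19 tested. The share called, 31.6%, was close to the 33.4% of all genes tested. DZIP1, a cilium base protein that acts on GLI proteins, rose from 32.0 CPM to 47.9 CPM (log2 fold change 0.58, SE 0.0586, adjusted p = 7.75e-05, edgeR's quasi-likelihood test). CUL1, a scaffold of the ubiquitin ligase that starts GLI3 cleavage, fell from 65.4 CPM to 45.6 CPM (log2 fold change -0.52, SE 0.0572, adjusted p = 0.000132, same edgeR test) and lies on chromosome 7 with its lowered median. SPOP, RAB23 and BTRC were the other genes called higher and ULK3 the other called lower. Of 21 transport genes of the cilium, the antenna in which the pathway runs, 2 were higher and 2 lower. The share called was 19%, below that of all genes tested. WDR35, a subunit of the retrograde transport complex, rose from 11.5 CPM to 18.7 CPM (log2 fold change 0.70, SE 0.107, adjusted p = 0.000941, edgeR's quasi-likelihood test), and its partner WDR19 rose by 0.31 (adjusted p = 0.0322, same edgeR test).

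Of 20 tested genes known elsewhere as GLI targets, 10 (50%) were called, 6 higher and 4 lower, beside the 33.4% of all genes tested, and the median log2 fold change was -0.01. FOXF1, a forkhead factor of mesenchyme, was at 4.50, 3.41 and 3.22 CPM in shCTRL and at 1.07, 1.33 and 0.985 CPM in shCCN3 cells, a log2 fold change of -1.72 (SE 0.191, adjusted p = 0.000143, edgeR's quasi-likelihood test). SFRP1, a secreted inhibitor of WNT signalling, was at 158, 151 and 141 CPM in shCTRL and at 53.2, 42.5 and 52.4 CPM in shCCN3 cells, a log2 fold change of -1.60 (SE 0.0929, adjusted p = 3e-06, same edgeR test). In both genes the groups were far apart, and no other tested gene of this list reached a log2 fold change of 1 in size with a call. The others called lower were FOXF2 (-0.90) and SOX9 (-0.27), and SNAI2, FOXL1, SNAI1, FOXC2, CCNE1 and CCND1 were called higher by 0.24 to 0.92 on the log2 scale. The lists were written with earlier results of these data known.

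**Figure D4:**
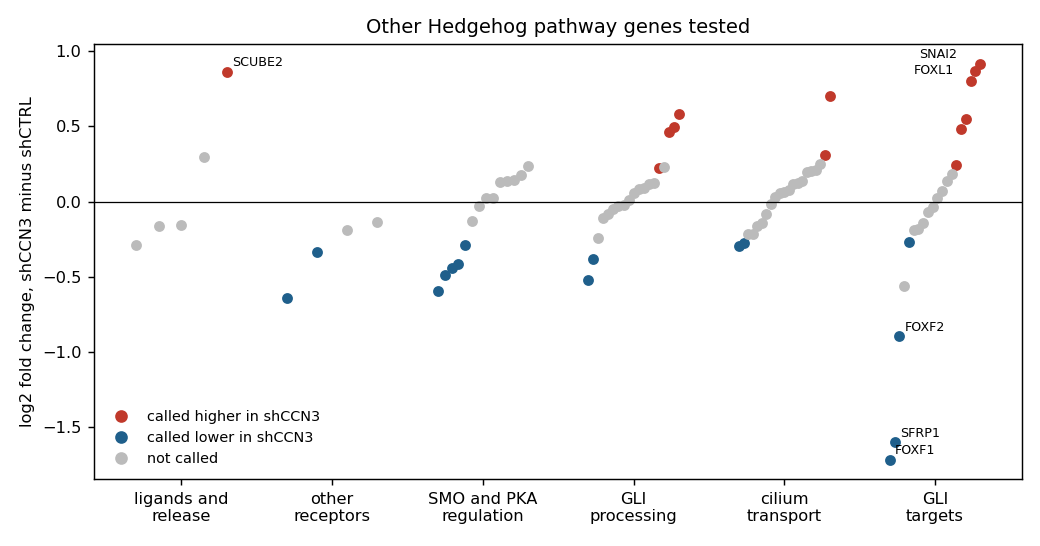
Log2 fold change (shCCN3 minus shCTRL) of each tested gene of the 6 lists of other Hedgehog pathway genes, ordered by value within a list. Red and blue points were called higher and lower in shCCN3 cells and grey points were not called, and the widest spread is that of the GLI targets, from -1.72 (FOXF1) to 0.92 (SNAI2).

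The genes whose pattern over the 6 libraries was most like that of PTCH1 were sought among those with a mean of at least 1 CPM, by the root mean square difference of log2 CPM centred on each gene's own mean. The nearest 3 were HHIPL1 (0.358), HEPH (0.384) and EEF1A2 (0.549). HHIPL1, a relative of HHIP by sequence, went from 3.76 CPM to 0.164 CPM with a log2 fold change of -4.50. HEPH, a membrane ferroxidase, went from 13.9 CPM to 0.568 CPM (-4.60 on the log2 scale), and EEF1A2, a translation elongation factor, from 145 CPM to 7.39 CPM (-4.30). They lie on chromosomes 14, X and 20, and likeness over 6 libraries in 2 groups mostly measures the size of the group difference.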

How the data were processed

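The authors prepared stranded poly(A) libraries and deposited raw read counts per gene for 46427 NCBI Gene IDs in 6 libraries, without normalization. The submitters' processing notes name bcl2fastq 2.20.0, Trimmomatic, HISAT2 2.1.0, StringTie 2.1.3d, DESeq2 and GRCh38. Whether counting used the strand is not given in the sources used here. The counts were TMM-normalized, filtered by group with filterByExpr (17419 genes) and tested with the quasi-likelihood test of edgeR 4.0.16 (R 4.3.3) with Benjamini-Hochberg adjustment over all genes tested, without a block. The SE of a log2 fold change was taken as its absolute value divided by the square root of the test's F statistic. It is thus not a separate estimate of spread. The scripts were tested on simulated data. The Hedgehog genes and all lists were chosen with earlier results of these data known. Named were the 9 Hedgehog genes, CCN3, every ligand, in each list the called genes with a log2 fold change of at least 1 in size (or the 2 largest called), and the 3 genes nearest to PTCH1 in pattern. Other named genes were chosen after their values were seen. Some genes that this rule names are not reported here. Positions and start windows are from RefSeq on GRCh38.p14 (44694 Gene IDs matched, 96.3%), and exon lengths are from GENCODE release 29 (26551 Gene IDs). Alternatives were DESeq2's size factors, upper-quartile factors, no filter, a minimum of 10 counts in each library, the DESeq2 1.42.0 test, limma-voom (limma 3.58.1), a replicate block and each library left out.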

Additional observations from a re-analysis of the deposited data

How the results depend on the processing

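Over 13 alternatives the number of Hedgehog genes called was 4 or 5, the number of other pathway genes called was 22 to 34 and the number of all genes called was 4181 to 7229. The counts of 34 and 7229 were those without shCCN3 replicate 2. No log2 fold change of the 9 genes turned its direction. PTCH1 moved most, between -5.41 and -4.72 with each library left out, the lowest value being that without shCCN3 replicate 3, and between -4.95 and -4.91 with the other settings, apart from a minimum of 10 counts in every sample, which removed PTCH1. GLI3 (-0.60 to -0.37) lost its call without shCTRL replicate 1 or 2, and its difference from the median of chromosome 7 lay between -0.18 and 0.06. The values of -0.37 and 0.06 were those without shCCN3 replicate 2. BOC, GAS1 and HHIP were called in every alternative. The deviations of same-numbered libraries from their group means correlated at 0.0782, -0.0170 and -0.0308, so the numbers were not taken as pairs. With a replicate block 4887 genes were called in all, with the same 5 Hedgehog genes among them and 24 other pathway genes. PTCH1 in shCCN3 cells rests on few reads, and the clones behind each group and the use of strand in counting are not given in the sources used here.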
